A study of Mus musculus with 4 samples.

Results

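H/ACA box small nucleolar RNAs (snoRNAs) were examined in mouse embryonic stem cells in which RNA held by a mutant form of Dis3l2 was surveyed. Every gene symbol that starts with Snora in either deposited table was taken, with 1 entry per symbol, which gave 38 snoRNAs of 20792 distinct symbols. All 38 are listed in the noncoding table, 32 of them are also listed in the mRNA table, and the values below come from the noncoding table unless stated otherwise. The cells were C57BL/6 mouse embryonic stem cells at passages 25 to 30, adapted to gelatin without feeder cells and kept in LIF and serum. One group received mutant Dis3l2 with a FLAG tag by transfection and the other a mock transfection, and the labels do not name the mutation, the promoter or the share of cells transfected. Each culture gave an input library, from RNA depleted of ribosomal RNA, and an IP library, from RNA recovered on anti-FLAG M2 gel, which makes 4 libraries. Each group holds 1 library, so no difference below has a replicate check and no p-value is given.

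H/ACA box snoRNAs fold into hairpins joined by a hinge (the H box) and end in a short ACA-containing tail. Most of them guide the conversion of chosen uridines of ribosomal RNA to pseudouridine, and a few are needed for cleavage of the ribosomal RNA precursor. They act in the nucleolus, bound by the pseudouridine synthase dyskerin (Dkc1) together with Nop10, Nhp2 and Gar1. In mammals most are cut out of introns of host genes, and exonucleases trim their ends back to the bound proteins. Dis3l2 is a cytoplasmic exonuclease that degrades RNA from the 3′ end and prefers RNA with added uridines.

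The noncoding table held 2746737 and 2738512 reads in the mutant and mock inputs and 3183346 and 2157604 in the mutant and mock IPs. The deposited values are reads divided by 1.8, 2.5, 2.7 and 2.5 in this order, with no correction for length, so equal reads in the inputs appear as a higher deposited value in the mutant. The mRNA table, the source of the counts in the rest of this paragraph, held 307324 and 291175 reads in the mutant and mock inputs. In the mutant and mock IPs it held 2275647 and 1860030, far more than in the inputs. The transcript of Dis3l2 had 7 and 3 reads in the mutant and mock inputs and 127 and 21 in the mutant and mock IPs. Whether they came from the cells' own gene or the transfected one cannot be told apart. All 10 embryonic stem cell markers examined had reads in both IPs, with 124 and 202 reads in all in the mutant and mock inputs and 3752 and 2630 in the IPs. The 5 of 7 fibroblast markers that were listed had 19, 10, 140 and 64 reads in the same order, and S100a4 was at 0 in all libraries. The 4 of 5 listed endoderm markers had 0 to 32 reads in all per library, 4 of 4 mesoderm markers 16 to 36 with Mixl1 at 0, and 4 of 4 ectoderm markers 16 to 69 with Fgf5 at 0.

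H/ACA snoRNAs made up about 1% of the noncoding reads of the inputs and almost none of those of the IPs. The 38 members together had 26428 reads in the mutant input, a share of 0.962% (exact binomial 95% interval 0.951 to 0.974). In the mock input they had 29424 reads, or 1.07% (1.06 to 1.09). In the mutant IP they had 200 reads, or 0.00628% (0.00544 to 0.00722), and in the mock IP 113 reads, or 0.00524% (0.00432 to 0.00630). The shares of the 2 IPs overlap in their counting intervals, while both lie far below those of the inputs. Counting intervals here and below cover counting error only, since copies made by PCR are not independent molecules. Because these are bulk samples, fewer cells with an RNA and less of it per cell cannot be told apart.

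The snoRNA from Rps2, Snora64 (ENSMUST00000104521.1), a guide for the large-subunit ribosomal RNA, was the most abundant member in both inputs of the noncoding table. It had 6389 and 6877 reads in the mutant and mock inputs but 12 and 13 in the mutant and mock IPs. Snora43 (ENSMUST00000082924.2) had 4175 and 5003 input reads against 8 and 5 in the IPs, and Snora17, also within Snhg7, had 2531 and 3222 against 30 and 19. For these 3 RNAs both inputs were high, both IPs were low, and the input and IP values did not overlap.

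Snora73b (ENSMUST00000083419.1) and Snora73a, the U17 snoRNAs, lie within Snhg3 and take part in early cleavage of the ribosomal RNA precursor rather than in guiding a known modification. Snora73b had 2191 and 1763 input reads and 42 and 24 IP reads in mutant and mock. Snora73a had 1951 and 1453 input reads and 28 and 7 IP reads. Snora73b had the highest IP count of all members in both conditions, 21.0% of the class in mutant and 21.2% in mock.

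The level per 100 nucleotides of RefSeq gene length allows the members to be set side by side. On this scale the deposited value in the mutant input was 3034 for Snora64, 1669 for Snora43 and 1065 for Snora17. Snora73b, at 205 nucleotides one of the longest members, had 594, and the shorter Snora68 (98 nucleotides) had 563. In the mock input Snora64, Snora43 and Snora17 were again the highest, at 2351, 1440 and 976, followed by Snora68 at 519 and Snora21, within Rpl23, at 473. The 5 members with most reads held 65.2% of the class in the mutant input and 62.8% in the mock input, so the summed values rest largely on a few RNAs.

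**Figure D1:**
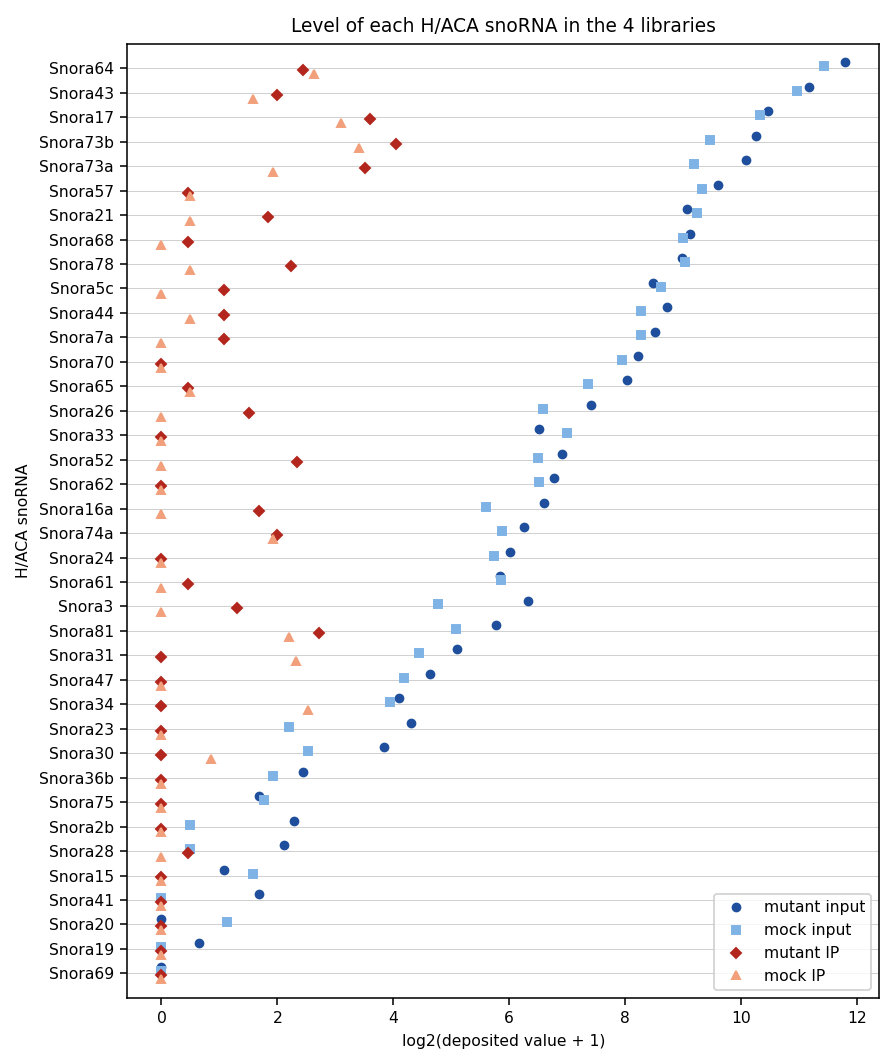
Level of each of the 38 H/ACA snoRNAs (rows, ordered by total reads) as log2(deposited value + 1), with 1 point per library; there are no replicates and no error bars. For the abundant members at the top, input points lie far to the right of the IP points, and 14 members sit at 0 in both IPs.

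A further group of abundant members was seen in the inputs and close to absent from the IPs. Snora57 had 1396 and 1599 reads in the mutant and mock inputs and 1 read in each IP. Snora68, a guide for the large-subunit ribosomal RNA, had 994 and 1271 input reads and 1 and 0 IP reads. Snora70, a guide for the small-subunit ribosomal RNA within Rpl10, had 535 and 612 input reads and 0 in both IPs. Snora33 (163 and 318), Snora62 (194 and 226) and Snora24 (114 and 131) also had 0 reads in both IPs. A count of 0 allows up to 3 reads, which is worth 1.11 deposited units in the mutant and 1.2 in the mock IP.

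Other members had moderate input counts and a few IP reads. Snora21 had 962 and 1514 input reads and 7 and 1 IP reads. Snora78, which by position lies within both Rps2, as Snora64 does, and Snhg9, had 911 and 1311 against 10 and 1. Snora5c, within Tbrg4, had 645 and 986 against 3 and 0. In all 3 the deposited value was lower in the mutant than in the mock input. With reads given in the order of both inputs and both IPs, mutant first, Snora44 (759, 771, 3 and 1), Snora16a (172, 119, 6 and 0) and Snora61 (101, 142, 1 and 0) lie within Snhg12. Snora7a, within Rpl32, had 658, 773, 3 and 0 reads, Snora65, a large-subunit guide within Rpl12, had 472, 408, 1 and 1, and Snora26, within Dancr, had 305, 236, 5 and 0. All 6 had at least 100 reads in each input and at most 6 in either IP.

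Another 5 members are named together because they had more than 3 reads in an IP beside modest input counts; other members with modest input counts, such as Snora62 and Snora24, had 0. Snora74a, the U19 snoRNA within Snhg4, had 135 and 144 input reads and 8 and 7 IP reads. Snora81, within Eif4a2, had 97 and 82 input reads and 15 and 9 IP reads, and Snora52 (ENSMUST00000082732.1), within Rplp2, had 214 and 222 against 11 and 0. Snora3, within Rpl27a, had 142 and 66 against 4 and 0, and Snora31, within Tpt1, had 60 and 52 against 0 and 10. In each of these 5 RNAs the inputs stayed above the IP of the same condition.

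The remaining 13 members had under 100 reads over the 4 libraries. Snora47 (43 and 43 input reads), Snora34 (29 and 36), Snora23 (34 and 9) and Snora30 (24 and 12) were measured in both inputs, and of these Snora34 had 12 and Snora30 had 2 reads in the mock IP. Snora36b, Snora75, Snora28, Snora2b, Snora15, Snora41, Snora20 and Snora19 had 0 to 8 reads in any library, and Snora69 had 0 in all 4. No member had IP reads without input reads. A further row with its symbol in capitals, SNORA77, is outside the choice of symbols and had 48 and 47 input reads and 0 in both IPs.

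The mutant IP was set against the mutant input to see how much of each RNA the gel retained from cells with the tagged protein. Ratios of deposited values are given as log2 with 1 added to each value, for members with a deposited value of at least 1 in either library, and a change of 4-fold was counted. Of 35 measured members, 31 were at least 4-fold lower in the IP, which is 88.6%, and 0 were higher; among all 3406 noncoding features 10.3% were lower and 25.7% higher. The median log2 ratio was -5.90, and -6.29 with 0 counts set to 3 reads, against 0.90 over all features. The labels describe removal of ribosomal RNA for the inputs and not for the IPs, so these ratios also compare RNA prepared in different ways, and the part of this in the ratios was not tested.

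In the mock cells, which lack the tagged protein, most members were lower in the IP too. Of 33 measured members 27 were at least 4-fold lower (81.8%) and 0 higher, against 10.7% and 23.5% of 3138 noncoding features. All 27 were also lower in the mutant, where Snora30, Snora34, Snora36b and Snora2b were lower in addition, and Snora2b was too low to be measured in the mock. The median log2 ratio was -6.49 for the members, or -6.21 with 0 counts at 3 reads, and 0.79 over all features. Summed over the class, the IP held 0.00505 times the deposited input value in the mutant (0.00437 to 0.00580) and 0.00384 times in the mock (0.00316 to 0.00462). The counting intervals of the 2 conditions overlap. All noncoding reads together stood at 0.773 and 0.788 times their input.

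Because a feature with few input reads cannot be measured far below its input, the members with at least 100 input reads were also set against all noncoding features with as many. In the mutant all 23 such members were at least 4-fold lower, against 30.8% of 597 features, of which 1.84% were higher, with medians of -6.77 and -1.03 on the log2 scale. In the mock all 22 were lower, against 33% of 630 features, of which 2.38% were higher, with medians of -7.24 and -0.91. The highest member of this group was Snora74a in both conditions, with IP over input at 0.0395 for mutant (0.0167 to 0.0801) and 0.0486 for mock (0.0192 to 0.103). Of the 574 other features at this depth in the mutant, 59 lay at or below Snora74a and 25 at or below the median member. In the mock more features, 107 of 608, lay at or below Snora74a, and 22 at or below the median member. Among the 59 of the mutant were all 5 scaRNAs of that depth, 5 snoRNA host genes named Snhg and 43 genes with predicted (Gm) names. Whether the Snhg rows share reads with the members they hold was not tested. Sums for Snhg7 and Snhg12 are given below, and some pairs add up between the tables while others do not.

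The ratio of IP over input differed between members by more than the counting error. Snora64, Snora43 and Snora57 stood at 0.00125 (0.000647 to 0.00219), 0.00128 (0.000551 to 0.00252) and 0.000478 (1.21e-05 to 0.00267) times their mutant input. The U17 snoRNAs stood higher, with 0.0128 for Snora73b (0.00918 to 0.0173) and 0.00957 for Snora73a (0.00634 to 0.0139). Snora17 stood at 0.00790 (0.00532 to 0.0113), although it shares the Snhg7 gene with Snora43. The intervals of Snora17 and Snora43 do not overlap, nor do those of Snora73b and Snora64. In the mock the values were 0.00189 for Snora64 (0.00101 to 0.00323), 0.000999 for Snora43 (0.000324 to 0.00233), 0.00590 for Snora17 (0.00355 to 0.00922) and 0.0136 for Snora73b (0.00870 to 0.0203). Snora73a was at 0.00482 in the mock (0.00193 to 0.00995), an interval that overlaps those of Snora64 and Snora43.

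Members of moderate abundance spanned a wide range. Snora52 stood at 0.0343 times its mutant input (0.0169 to 0.0626), Snora16a at 0.0233 (0.00842 to 0.0517) and Snora81 at 0.103 (0.0556 to 0.179). Snora81 was at 0.110 in the mock (0.0485 to 0.219), and its intervals in the 2 conditions overlap. Members at 0 IP reads give bounds. Against a floor of 3 reads, Snora70 was at least 268-fold lower in the mutant IP than in its input, Snora62 at least 97.0-fold and Snora33 at least 81.5-fold. The upper limits of their counting intervals, at 0.00461, 0.0128 and 0.0153 times input, allow somewhat smaller folds. In the mock IP, against the same floor, Snora68 was at least 424-fold lower, Snora5c at least 329-fold, Snora7a at least 258-fold and Snora70 at least 204-fold. Here too the upper limits, at 0.00291, 0.00375, 0.00478 and 0.00605 times input, allow somewhat smaller folds.

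**Figure D2:**
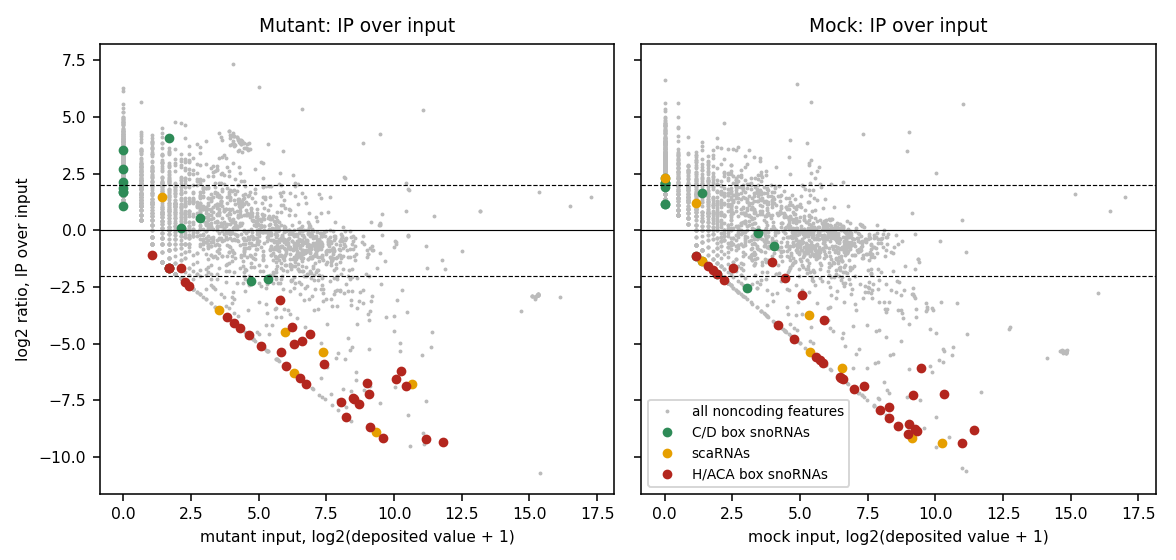
Log2 ratio of IP over input (vertical) against input level as log2(deposited value + 1) (horizontal) for noncoding features with a value of at least 1 in either library, mutant on the left and mock on the right; dashed lines mark 4-fold. Red marks H/ACA snoRNAs, green C/D box snoRNAs and orange scaRNAs. The H/ACA snoRNAs lie along or near the lower edge, with medians of -5.90 and -6.49 against 0.90 and 0.79 for all features; the lower edge itself is where a feature has 0 IP reads.

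Other classes of guide RNA gave a comparison. C/D box snoRNAs, most of which guide methylation of ribosomal RNA, were barely detected in the noncoding table, the only one in which they were counted. The 22 of them together had 146 and 100 reads in the mutant and mock inputs and 286 and 115 in the mutant and mock IPs. In each input 15 of the 22 had 0 reads. A few RNAs made up most of the sums: Snord15a gave 49.3% of the mutant input reads and Snord118 49.3% of the mutant IP reads. Summed, they stood at 1.31 times input in the mutant (1.07 to 1.61) and 1.15 times in the mock (0.872 to 1.52), and none had 100 input reads, so the classes could not be compared at the same depth. The scaRNAs, which guide modification of spliceosomal RNAs in Cajal bodies and some of which carry H/ACA hairpins, were low in the IPs when summed. Their 9 members had 4685 and 4870 input reads and 69 and 28 IP reads, which is 0.00982 (0.00763 to 0.0125) and 0.00575 (0.00382 to 0.00832) times input. Scarna13 alone gave 2944 and 3015 of these input reads and 38 and 2 of the IP reads. Of the scaRNAs measured, 6 of 7 in the mutant and 5 of 8 in the mock were at least 4-fold lower. Scarna2, with 3 reads in each input and 17 and 10 in the IPs, was higher in both, and Scarna9 had reads only in the mock IP, where it had 10. Terc, the telomerase RNA, which ends in an H/ACA domain, had 119 and 74 input reads and 13 and 6 IP reads, which gave log2 ratios of -3.53 (mutant) and -3.17 (mock). With 1 library per group no difference between these classes was tested.

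The snoRNAs were then set beside the mRNAs of the genes that hold them. For 13 of the 25 members with at least 100 reads, a protein-coding RefSeq gene whose interval holds the snoRNA was used from the mRNA table, which gave 12 host genes, mostly ribosomal proteins. The gene table carries no strand, so hosts were matched by position alone. All 13 snoRNAs were at least 4-fold lower in the IP than in the input in both conditions, with median log2 ratios of -6.77 (mutant) and -7.00 (mock). All 12 protein-coding host mRNAs were higher in the IP in both conditions, with log2 ratios of 1.46 to 3.96 in the mutant and 0.93 to 5.10 in the mock. At least 4-fold higher were 10 hosts in the mutant (83.3%) and 7 in the mock (58.3%), against 61.1% of 13636 and 60.6% of 13110 features of the mRNA table, so most features of that table were higher too. Input reads of the hosts ranged from 0 to 113. Hosts that RefSeq lists as long noncoding RNAs differed by table. In the noncoding table all 6 of them (Snhg3, Snhg4, Snhg7, Snhg8, Snhg12 and Dancr) were at least 4-fold lower in the IP. Their log2 ratios were -9.41 to -3.04 in the mutant and -10.50 to -2.31 in the mock. Whether these rows hold reads of the snoRNAs within them was not tested. In the mRNA table Snhg3, Snhg4, Snhg7 and Snhg12 had 0 to 2 input reads and 0 to 43 IP reads, while Snhg8 and Dancr were again lower in the IP. The noncoding 5730408K05Rik, which holds Snora57, had 1983 and 2313 input reads and 5 and 4 IP reads there, log2 ratios of -8.60 and -8.48.

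Rps2, which codes for a ribosomal protein and holds Snora64 and Snora78, had 94 and 113 input reads and 577 and 393 IP reads in mutant and mock. Its mRNA was thus higher in both IPs than in either input, whereas the snoRNAs within its interval were lower. Snora78 also lies within Snhg9, so which gene it comes from cannot be told by position. Rpl23 had 56, 59, 235 and 264 reads, and its snoRNA Snora21 had 962, 1514, 7 and 1. Eif4a2, a translation initiation helicase, had 16, 9, 208 and 251, and its Snora81 had 97, 82, 15 and 9. In these 3 genes the input held more snoRNA than mRNA reads and the IP held more mRNA than snoRNA reads.

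**Figure D3:**
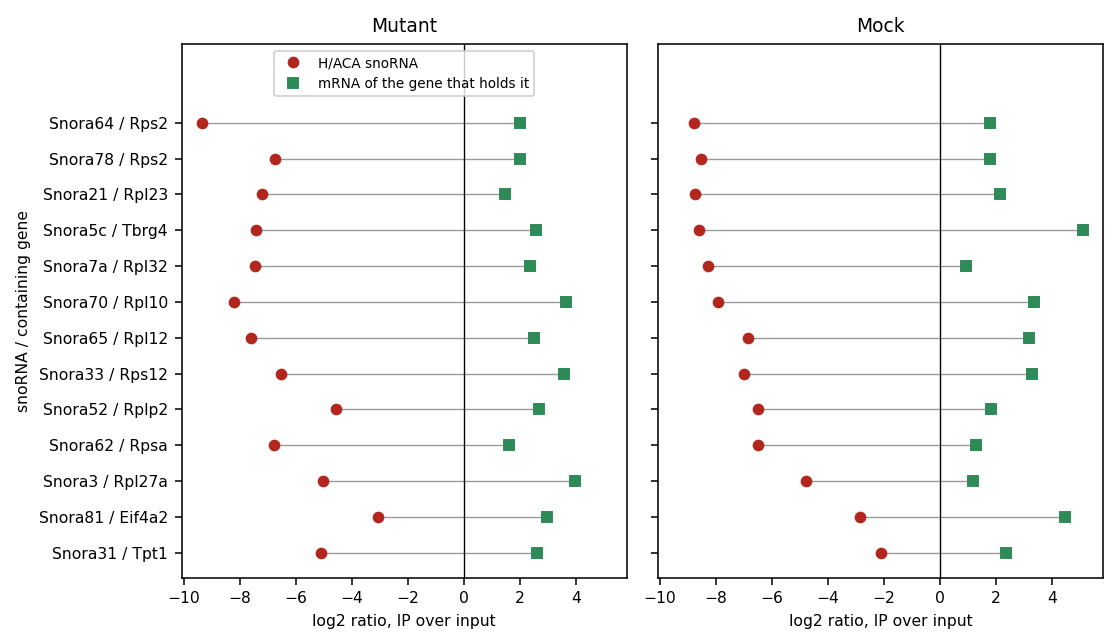
Log2 ratio of IP over input for 13 H/ACA snoRNAs (circles) and for the mRNA of the gene that holds each (squares). Mutant is on the left and mock on the right. Rps2 holds 2 of the snoRNAs, and Snora78 also lies within Snhg9. There are no replicates. All circles lie left of 0 and all squares right of it, with median log2 ratios of -6.77 and 2.61 in the mutant.

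Counts of some snoRNAs and their noncoding host genes add up between the 2 tables. In the noncoding table Snhg7 had 3951 reads in the mutant input and Snora43 had 4175, together 8126, and the mRNA table lists Snora43 with 8060 and Snhg7 with 0. In the mock input the sum was 10067 and the mRNA table had 10053 for Snora43. For Snora24 and Snhg8 the sum was 236 in the mutant input against 234 for Snora24 in the mRNA table, which also gives Snhg8 240. For Snora44 and the leading transcript of Snhg12 it was 1448 against 1435, but 1743 with all Snhg12 transcripts. The 2 entries of Snora16a in the noncoding table had 329 reads together, against 327 in the mRNA table. Other pairs did not add up in the mutant input. Snora17 and Snhg7 gave 6482 against 2470 for Snora17 in the mRNA table. With leading transcripts, Snora26 and Dancr gave 796 against 1305, and Snora74a and Snhg4 gave 340 against 294. With all host transcripts these sums were 1612 and 721, while the 4 Dancr entries without Snora26 held 1307. How reads on both a snoRNA and its host were assigned was not tested.

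Across both tables, 25 members had at least 10 reads in each input of the noncoding table and an entry in the mRNA table, and 14 of them agreed within 15% in both inputs. Of the other 11, 5 had 1.83 to 2.18 times the reads in the mRNA table: Snora16a, Snora24, Snora43, Snora44 and Snora74a. Snora26 had 1305 and 956 reads there against 305 and 236, and the mRNA table gives Dancr, its host, 1305 and 960. Snora5c had 210 and 319 against 645 and 986, and Snora62 had 0 and 3 against 194 and 226. With entries from the mRNA table first, the median log2 ratio of IP over input was -6.49 in the mutant and -6.60 in the mock. Levels of those 11 members, the per-length order included, depend on the table by these amounts. The top rank depends on it too. In the mRNA table Snora43 led with 8060 and 10053 reads in the mutant and mock inputs, above Snora64 with 6215 and 6648.

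The mutant IP was set against the mock IP to see which H/ACA snoRNAs were recovered with the tagged protein. Of 24 members with any IP read, 12 had reads in both IPs, 9 only in mutant and 3 only in mock, and 15 had more than 3 reads in either. Of the 18 with a deposited value of at least 1, 1 was at least 4-fold higher in the mutant IP (5.56%) and 2 were lower (11.1%), against 13.5% and 5.99% of 3506 noncoding features. Neither count of 18 stands far from the background. Among 14 members with at least 100 reads in each input 1 was higher (7.14%) and 0 lower, against 12.4% and 0% of 518 features. Summed over the class the ratio was 1.64 (1.29 to 2.08), an interval that holds the 1.37 of all noncoding reads.

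With 1 added to each value the member past 4-fold was Snora52, with 11 mutant and 0 mock IP reads. Against the floor of 3 reads it was at least 3.40-fold higher, and the lower limit of its counting interval was 2.32. Snora73a had 28 reads against 7, a ratio of 3.70 (1.58 to 10), while Snora73b had 42 against 24, a ratio of 1.62 (0.959 to 2.80). Snora78 had 10 against 1, a ratio of 9.26 with an interval from 1.32 to 402, and Snora21 had 7 against 1, a ratio of 6.48 (0.833 to 292). These 2 ratios exceed 4 as deposited and fall short of it only once 1 is added to each value. Snora16a had 6 reads against 0, Snora26 had 5 against 0 and Snora3 had 4 against 0, and the lower limits of their ratios were 1.09, 0.848 and 0.611, so the intervals of the last 2 hold 1. Other members with reads in both IPs stood at 0.855 for Snora64 (0.356 to 2.03), 1.48 for Snora43 (0.427 to 5.76), 1.46 for Snora17 (0.796 to 2.75), 1.06 for Snora74a (0.335 to 3.43) and 1.54 for Snora81 (0.633 to 4). The intervals of these 5 hold 1 and reach beyond 2-fold on at least one side, so smaller differences were not detectable at this depth.

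The 2 lower members were Snora34, with 0 mutant and 12 mock IP reads, and Snora31, with 0 and 10. They were at least 4.32- and 3.60-fold lower against the floor, and the upper limits of the counting intervals of their ratios were 0.333 and 0.413. Their input reads were 29 and 36 for Snora34 and 60 and 52 for Snora31. The mock IP thus held reads of both RNAs that the mutant IP did not, at counts of 12 and below. The mRNA table lists the same 12 and 10 mock IP reads for them.

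**Figure D4:**
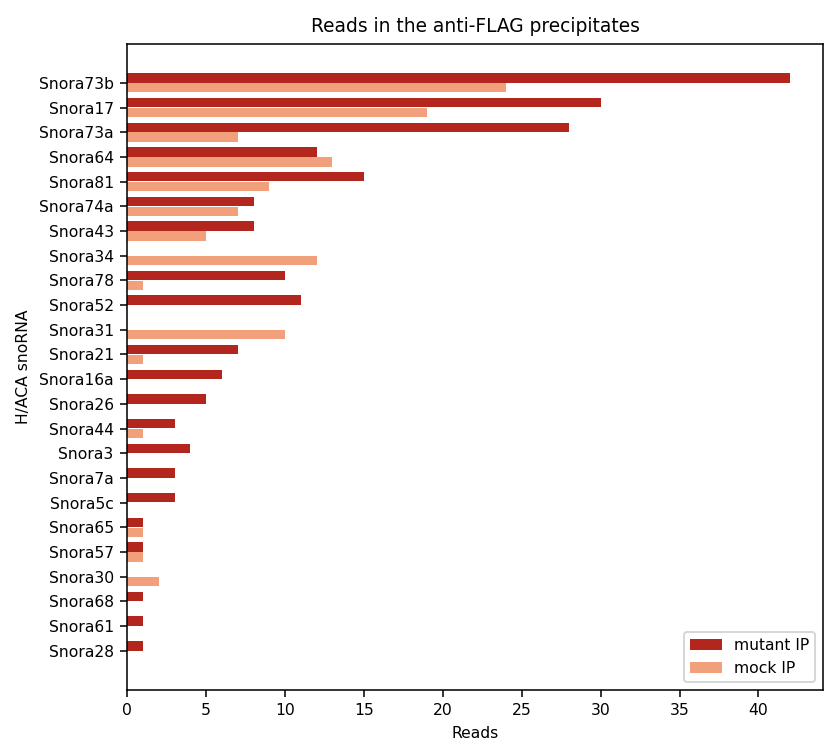
Reads in the mutant IP and the mock IP (horizontal axis, linear from 0) for the 24 H/ACA snoRNAs with a read in either IP, ordered by their sum; 1 library each, no error bars. Snora73b leads with 42 and 24 reads, and Snora34 and Snora31 have reads in the mock IP alone.

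The specific IP enrichment divides the mutant ratio of IP to input by the mock one, and it asks for binding beyond the background of the gel. Of 36 measured members 0 were at least 4-fold higher and 4 lower (11.1%), against 13.3% and 8.69% of 3968 noncoding features, with a median log2 value of -0.17 against 0.03. Of the 36, 12 had 0 reads in both IPs, so their value is the input ratio turned and says nothing of the IP. Over the other 24 the median was 0.16, with 0 higher and 3 lower. The 4 lower members were Snora31 at -2.98, Snora34 at -2.69, Snora30 at -2.15 and Snora23 at -2.11, and each had 0 reads in the mutant IP. Snora23 is one of the 12. Among the 22 members with at least 100 reads in each input, 0 passed 4-fold in either direction and the median was 0.35, against -0.04 over 547 features of which 10.8% were higher and 0.183% lower. Without the 4 of these 22 at 0 in both IPs the median was 0.42. The highest of these members were Snora52 at 1.93, Snora78 at 1.8 and Snora21 at 1.54, and the lowest were Snora65 at -0.71 and Snora64 at -0.56.

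The inputs were compared to see whether H/ACA snoRNA levels differed between the transfections. With a 2-fold threshold, 6 of 36 members were higher in the mutant input (16.7%) and 1 was lower (2.78%), against 29% and 13.6% of 2533 noncoding features. The 6 were Snora23, Snora2b, Snora41, Snora28, Snora3 and Snora30, of which Snora3 had the most reads, and the lower one, Snora20, had 0 and 3 reads. Of the 22 members with at least 100 reads in each input 0 passed 2-fold with 1 added to each value, against 8.96% of 547 features higher and 0% lower; Snora16a, at 2.01 as deposited, lies at 0.99 on that log2 scale. On the deposited scale 17 of these 22 were higher in the mutant, but 5 of 22 had more reads there, although the 2 inputs held nearly equal total reads. The class as a whole stood at 1.25 times the mock input (1.23 to 1.27), below the 1.39 of all noncoding reads.

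Members differed from each other in the input comparison by more than counting error. The median ratio of noncoding features with at least 100 reads in each input was 1.37. The counting intervals of 5 of the 22 members lay above it, those of 11 below it, and those of 6 held it. Above it were Snora73a at 1.86 (1.74 to 2), Snora73b at 1.73 (1.62 to 1.84), Snora16a at 2.01 (1.58 to 2.56), Snora26 at 1.79 (1.51 to 2.14) and Snora65 at 1.61 (1.40 to 1.84). Both U17 snoRNAs are among them, and without them the class ratio was 1.18 (1.16 to 1.2). Snora3, with 142 reads against 66, had a ratio of 2.99 (2.22 to 4.06), and Snora23, with 34 against 9, one of 5.25 (2.46 to 12.4).

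At the other end Snora33, within Rps12, had 163 reads in the mutant input and 318 in the mock input, a ratio of 0.712 (0.586 to 0.863). Snora21 gave 0.883 (0.813 to 0.957), Snora5c 0.909 (0.821 to 1) and Snora78 0.965 (0.886 to 1.05). The abundant Snora64, Snora43, Snora17 and Snora57 gave 1.29 (1.25 to 1.34), 1.16 (1.11 to 1.21), 1.09 (1.04 to 1.15) and 1.21 (1.13 to 1.30). All 8 lay below the ratio of noncoding features in general. For Snora64 and Snora43 the direction against the mock depends on the scale. Centring turned the log2 ratio of Snora64 from 0.37 to -0.06 and that of Snora43 from 0.21 to -0.22. Snora33 stayed below 0, from -0.49 to -0.92, and Snora73a, a member above the general ratio, stayed above 0 at 0.47.

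Members of one gene did not always share an input ratio. The U17 snoRNAs of Snhg3 gave 1.86 and 1.73 with overlapping intervals, and Snora43 and Snora17 of Snhg7 gave 1.16 and 1.09, also overlapping. Snora64 and Snora78, both within Rps2, gave 1.29 and 0.965, and their intervals do not overlap, but Snora78 also lies within Snhg9. Within Snhg12, Snora16a gave 2.01, Snora44 gave 1.37 (1.24 to 1.51) and Snora61 gave 0.988 (0.758 to 1.28), and the interval of Snora16a overlaps neither of the others. In the mRNA table, where these entries hold more reads, Snora16a gave 1.88 (1.59 to 2.24) and Snora44 gave 1.30 (1.21 to 1.39).

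**Figure D5:**
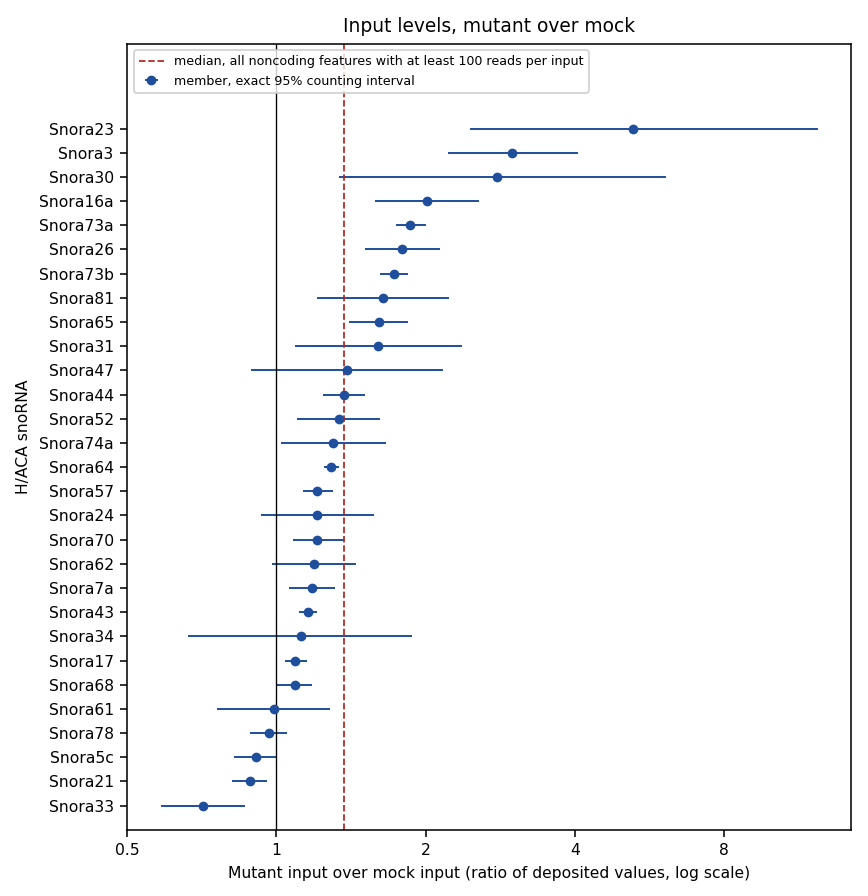
Ratio of mutant over mock input (horizontal, log scale) for the 29 H/ACA snoRNAs with at least 9 reads in each input; bars are exact 95% counting intervals, the solid line marks 1 and the dashed line the median of noncoding features with at least 100 reads in each input. Snora33 is lowest at 0.712 and Snora23 highest at 5.25, and more intervals lie left of the dashed line than right of it.

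Messenger RNAs of the H/ACA machinery were read in the mRNA table, whose inputs were shallow. Dkc1, the pseudouridine synthase of the complex, had 82 and 57 input reads and 191 and 145 IP reads in mutant and mock. The core proteins Nhp2, Nop10 and Gar1 had 0 to 11 reads in the inputs and 6 to 48 in the IPs. Between the IPs 0 of these 4 genes passed 4-fold in either direction, nor did any of the 5 measured assembly factors (Naf1, Shq1, Nufip1, Ruvbl1 and Ruvbl2), with medians of 0.41 and 0.04 against a background of 10.1% higher and 5.74% lower among 14272 features. Among 10 genes of RNA end processing, 1 was higher, Dis3l2 itself at 2.35 on the log2 scale, and 0 were lower. The poly(A) polymerase Papd5 and the deadenylase Parn, which act on the ends of H/ACA RNAs, gave 0.09 and 1.32.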

How the data were processed

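RNA of 4 libraries was measured by sequencing. Reads were aligned with Bowtie to mm9, per the submitters' processing notes; no source used here gives the counting tool, the use of strand or the rule for multiply aligned reads. The authors deposited 2 tables of a signal, which for 100% of values was a whole number of reads, within 0.02, divided by 1 factor per library. Values were kept as deposited. For a symbol with several transcripts the one with the highest mean was used. Lengths (38 of 38 members matched) and host genes came from RefSeq's table of GRCm38, another build, so no coordinates are given. One host gene is not reported here. Ratios of 2 libraries carry exact conditional binomial (Clopper-Pearson) 95% intervals. Members, lists and tests were chosen with earlier results of these data known, and the filter of 100 input reads after the values were seen. Members with 100 reads in all, or past 4-fold between the IPs or in the specific enrichment, were named with their reads. Alternatives were a pseudocount of 5, no minimum or a minimum of 5, centring, equal totals and the mRNA table first. Intervals and calls of the mutant IP against the mock IP were checked on simulated data with Python 3.11.15 and scipy 1.17.1. The simulation drew counting error alone and placed changes in features with more mock IP reads than nearly all members had. It therefore does not cover calls at the low IP counts of most members, or the calls of the other comparisons.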

Additional observations from a re-analysis of the deposited data

How the results depend on the processing

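No paired analysis was possible because each group holds 1 library. That H/ACA snoRNAs lay far below input in both conditions held under all alternatives run, with 0 members higher. A pseudocount of 5 moved the median from -5.90 to -3.80 in the mutant and from -6.49 to -4.25 in the mock. Between the IPs the 1 higher and 2 lower members became 0 and 0 with a pseudocount of 5 or a minimum of 5; centring left 0 higher, the mRNA table first gave 2 higher, and at least 100 input reads left 0 lower. Between the inputs the median of 0.37 turned to -0.06 by centring and -0.10 with equal totals. The 6 higher and 1 lower members there became 2 and 0 with a pseudocount of 5, 3 and 0 with a minimum of 5, and 0 and 0 with at least 100 reads in each input, while the mRNA table first gave 4 lower. For the specific enrichment the 0 higher and 4 lower became 2 and 2 with equal totals, 0 lower with a pseudocount of 5 or at least 100 input reads, and 2 higher with the mRNA table first. Adding SNORA77 moved no count or median beyond these limits. Without Snora64, a choice made after the values were seen, the class held 0.730% and 0.823% of mutant and mock input reads, and without Snora73a and Snora73b 0.811% and 0.957% of the inputs and 0.00408% and 0.00380% of the mutant and mock IP. In the IPs 200 and 113 reads over 38 members limit what can be told between conditions; the cause of the remaining shifts was not tested.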
